A study of Rattus norvegicus with 4 samples.

Results

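The genes described here are the glutathione, antioxidant and chaperone genes of the array, 17 of its 1185 spots, whose gene names held one of 10 terms such as glutathione, superoxide, thioredoxin, heat shock or chaperon. No spot name matched catalase, heme oxygenase, metallothionein or glucose-regulated protein. The spots were measured in mesenteric white adipose tissue of female Wistar rats that weighed 220 to 230 g at the start. In the OE group, 2 rats received oleoyl-estrone (OE), the oleic acid ester of estrone, by daily gavage at 10 μmol/kg in 0.2 ml of sunflower oil, and in the control group 2 rats received the oil alone. The tissue was taken at 48 h, and the RNA of each rat was hybridized to its own nylon array, named here control 1, control 2, OE 1 and OE 2. Where values are listed by group, the first is that of array 1 and the next that of array 2. The age of the rats is not in the labels, and the tissue was not separated into cell types. In such bulk RNA, fewer cells of a type and less RNA per cell cannot be told apart.

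Glutathione is a small thiol that cells keep at high concentration. Glutathione synthetase performs the last step of its synthesis and glutathione reductase returns the oxidized form to the thiol. Glutathione S-transferases (GST) couple it to electrophiles, and glutathione peroxidases (GPX) use it to reduce hydrogen peroxide and lipid peroxides. Superoxide dismutase 1 (SOD1) turns superoxide into hydrogen peroxide in the cytosol, and thioredoxin peroxidases reduce peroxides with thioredoxin as the donor. Heat shock proteins bind unfolded or client proteins, and several of them are induced by heat or oxidative stress through the heat shock factor. In fat, lipid synthesis draws on the same NADPH that keeps glutathione and thioredoxin reduced.

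Of the 17 genes, 10 could be matched to a RefSeq symbol through the name on the array, and 7 of these had an upstream window outside the annotated gene (RefSeq, build GRCr8). The windows of HSP27, SOD1 and MGST1 are shown because the control arrays differed widely in these genes and their windows differ in heat shock elements. Capitals mark the paired letters of the heat shock element, GAANNTTC or TTCNNGAA, each of which reads the same on both strands and which may overlap. HSP27 (symbol Hspb1) is read from the minus strand at chr12:26432302-26432551, SOD1 from the plus strand at chr11:42942573-42942741 and MGST1 from the plus strand at chr4:172760680-172760929, all ending at the base before the gene.
HSP27: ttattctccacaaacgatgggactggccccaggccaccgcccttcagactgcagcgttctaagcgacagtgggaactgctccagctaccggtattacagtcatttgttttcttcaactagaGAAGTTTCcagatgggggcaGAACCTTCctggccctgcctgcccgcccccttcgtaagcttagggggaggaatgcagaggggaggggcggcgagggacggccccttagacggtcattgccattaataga
SOD1: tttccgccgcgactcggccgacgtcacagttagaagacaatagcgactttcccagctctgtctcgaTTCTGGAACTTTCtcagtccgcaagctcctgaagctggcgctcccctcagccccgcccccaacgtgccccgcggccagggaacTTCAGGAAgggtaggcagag
MGST1: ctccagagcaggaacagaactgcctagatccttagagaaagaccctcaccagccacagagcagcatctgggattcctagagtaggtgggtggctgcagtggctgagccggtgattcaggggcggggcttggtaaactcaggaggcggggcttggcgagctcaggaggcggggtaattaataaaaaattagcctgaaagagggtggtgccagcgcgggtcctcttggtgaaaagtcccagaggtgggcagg
The HSP27 window held 2 matches to GAANNTTC, 121 and 101 bases before the gene. The SOD1 window held 1 match to GAANNTTC, which overlapped 1 of its 2 matches to TTCNNGAA. MGST1, GSTM2, glutathione synthetase, GPX3 and thioredoxin peroxidase 1 held neither, and none of the 7 windows held TGACNNNGC, the core letters of the antioxidant response element, on either strand. Over 33469 RefSeq windows of 250 bases before a start, 7.23% held GAANNTTC, 7.48% held TTCNNGAA and 10.1% held TGACNNNGC. The 7 windows were cut at the annotated gene and held 149 to 250 bases, so that these shares are not matched in length. Binding was not measured here, and a match is a description of letters alone.

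The adjusted intensity is that of the spot less the background of its array, or 0 if negative. Divided by the 50th percentile of the same array, which was 14 and 9 in controls and 22 and 17 in OE-treated rats, it is called here the level, in array medians. Backgrounds were 54 to 61, and an adjusted intensity of 2 times the background is called the detection limit. HSP90-beta, MGST1 and SOD1 reached it on all 4 arrays. On at least 1 array, 10 of the 17 genes reached it, and 285 of the 1185 spots. Control 1 had 3 genes over the limit, control 2 had 8, OE 1 had 7 and OE 2 had 5. Over the 1176 spots other than housekeeping spots, these numbers were 147, 173, 240 and 171. HSP70, thioredoxin peroxidase 1, GST Ya, GST Yrs-Yrs, GST subunit 8, GPX3 and glutathione reductase reached the limit on none of the arrays.

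**Figure D1:**
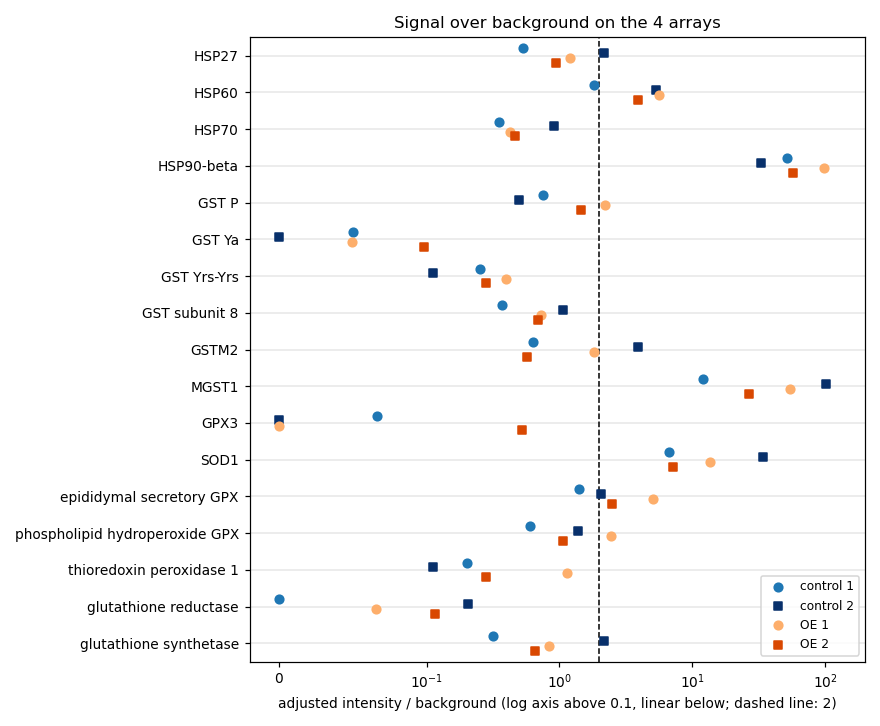
Adjusted intensity divided by the background (x axis, multiples of the background, logarithmic above 0.1 and linear below) of each of the 17 genes, with 1 point per array and the limit of 2 as a dashed line. HSP90-beta, MGST1 and SOD1 lie to the right of the line on every array, and 7 genes lie to the left of it on every array.

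For the comparison of OE with control, levels under 0.235 array medians (the 10th percentile of all positive levels) were raised to that floor, and genes were kept if both arrays of a group exceeded it. This kept 14 of the 17 genes and 922 spots in all, and left out GST Ya, GPX3 and glutathione reductase. The ratio is the mean level of the OE arrays over that of the control arrays. Of the 14 genes, 6 had a ratio under 0.5 (HSP27, HSP70, MGST1, GSTM2, SOD1 and glutathione synthetase), against 18.3% of the 922 spots. A ratio over 1.5 was found for 2, GST P and thioredoxin peroxidase 1, against 18.9% of the spots. The median ratio was 0.658 for the 14 genes and 0.895 for the 922 spots. Both OE levels lay below both control levels for none of the 14 genes (15.8% of spots), and above both for GST P and thioredoxin peroxidase 1 (14.1% of spots). With limma and Benjamini-Hochberg adjustment over the 922 spots, none of the 14 genes passed an adjusted p of 0.05 (0% of spots), and their adjusted p lay between 0.957 and 0.989. At an unadjusted p under 0.05 there were 0 of the 14 genes and 19 of the 922 spots (2.06%). With 2 arrays per group an exact permutation test cannot reach 0.05, and none was run.

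**Figure D2:**
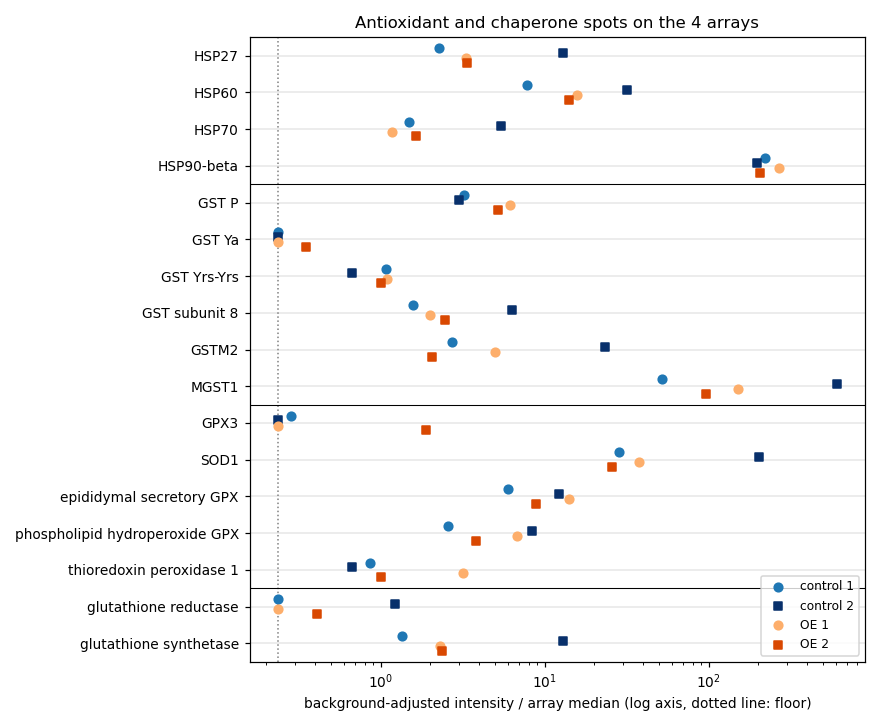
Level of each of the 17 genes (x axis, array medians on a logarithmic scale), grouped by role, with 1 point per array and levels under the floor drawn at the floor (dotted line). Control 2 is the rightmost point for MGST1, GSTM2, SOD1, glutathione synthetase and HSP27, while the 4 points of HSP90-beta lie between 197 and 270.1.

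Among the glutathione transferases, MGST1 is the membrane-bound enzyme of the endoplasmic reticulum and outer mitochondrial membrane, which also reduces lipid peroxides. The MGST1 level was 51.9 and 607 in controls and 152 and 96.5 in OE-treated rats. Control 2 stood 11.7 times above control 1, and both OE arrays lay between the controls. The control mean was 329.5 ± 393 array medians (SD, n = 2) and the OE mean 124 ± 39.0 (SD, n = 2), a ratio of 0.377 with a log2 fold change of -0.55 (standard error 1.27). GSTM2, a cytosolic transferase of the mu class, had levels of 2.71 and 23.2 in controls and 5.0 and 2.06 under OE. Only control 2 exceeded the detection limit, and control 1 lay between the OE arrays. The ratio was 0.272 and the log2 fold change -1.31 (standard error 1.20). With each OE array set at the lowest level of a spot over the detection limit, the GSTM2 control mean was 2.02-fold higher. Control 1, also under the limit, was taken as read, so that 2.02 is not a lower bound and rests on control 2. The spots of MGST1 and GSTM2 are neighbours by array code, and GST Ya, on the other side of MGST1, read an adjusted intensity of at most 6 on any array. Spread of signal between neighbouring spots was not tested.
GST P, the pi class enzyme, had close replicates. Its level was 3.21 and 3.0 in controls against 6.14 and 5.18 in OE-treated rats, so that the groups did not overlap. The control mean was 3.11 ± 0.152 and the OE mean 5.66 ± 0.679 (SD, n = 2 each), with a ratio of 1.82. The log2 fold change of 0.86 had a standard error of 0.57 and an adjusted p of 0.957 with limma. In adjusted intensity GST P read 45 and 27 in controls and 135 and 88 under OE, and only OE 1 exceeded the detection limit. Control arrays set at the limit in this way would average 10.4 array medians, above the OE mean, so that no bound on the fold could be given. After scaling to the housekeeping spots the ratio of GST P was 1.07, and without scaling it was 3.10, where the median log2 ratio of all spots was -0.91 and 0.63 in place of -0.16.
GST subunit 8, GST Yrs-Yrs and GST Ya stayed below the detection limit on all arrays. GST subunit 8 ranged from 22 to 57 in adjusted intensity, highest on control 2, and had a ratio of 0.566, which was 1.42 without control 2 and 1.09 without scaling. GST Yrs-Yrs lay between 0.667 and 1.09 array medians, with a ratio of 1.20, which was 0.678 after scaling to the housekeeping spots. The transferases are families of similar sequence, and the part of cross-hybridization between them was not tested.

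SOD1 had an adjusted intensity of 398 and 1832 in controls and of 830 and 439 under OE, all over the detection limit. Its level was 28.4 and 204 in controls and 37.7 and 25.8 in OE-treated rats. Control 1 lay between the OE arrays, and control 2 stood 7.16 times above control 1. The ratio was 0.274, from a control mean of 116 ± 124 and an OE mean of 31.8 ± 8.42 (SD, n = 2 each), and the log2 fold change was -1.29 (standard error 1.08).
The epididymal secretory GPX, a secreted peroxidase first known from the epididymis, had levels of 6.0 and 12.2 in controls and 14 and 8.88 under OE. Its groups overlapped, and the ratio was 1.26 with all arrays, 1.91 without control 2 and 0.938 without control 1. The phospholipid hydroperoxide GPX, which reduces lipid peroxides within membranes, had levels of 2.57 and 8.33 in controls and 6.77 and 3.82 under OE. Both OE levels lay between those of the controls, and the ratio was 0.972 with all arrays, 2.06 without control 2 and 0.636 without control 1. GPX3, the plasma form of the enzyme, read at most 32 in adjusted intensity, on OE 2, and stayed below the detection limit.
Thioredoxin peroxidase 1 (symbol Prdx2), a cytosolic peroxiredoxin, had adjusted intensities of 12 and 6 in controls and 70 and 17 in OE-treated rats, none of which reached the detection limit. Its levels were 0.857 and 0.667 in controls and 3.18 and 1.0 under OE, and the groups did not overlap. The ratio was 2.74 with both OE arrays and 1.31 without OE 1. The log2 fold change was 1.24 (standard error 0.78).

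Of the enzymes that supply glutathione, glutathione synthetase had a level of 1.36 and 13 in controls and of 2.32 and 2.35 in OE-treated rats. The OE arrays were nearly equal, above control 1 and below control 2. The ratio was 0.325, with a log2 fold change of -0.85 (standard error 1.18). Only control 2, with an adjusted intensity of 117, exceeded the detection limit. With the OE arrays set at it in the same way and control 1 as read, the control mean was 1.12-fold higher, which is not a lower bound. Glutathione reductase read at most 11 on any array.

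HSP90-beta, the constitutive cytosolic chaperone of kinases and steroid receptors, had similar levels on all 4 arrays. Its level was 221 and 197 in controls and 270.1 and 205 under OE. The groups overlapped, and the ratio of 1.14 lay between 0.980 and 1.29 when any 1 array was left out, but was 0.664 after scaling to the housekeeping spots, 1.94 without scaling, 1.64 without background subtraction and 1.65 with the normexp background correction. The log2 fold change of HSP90-beta was 0.17 (standard error 0.58). HSP60, the mitochondrial chaperonin, had levels of 7.86 and 31.8 in controls and 15.7 and 14.1 under OE. Both OE arrays lay between the controls, and the ratio was 0.75 with all arrays, 1.89 without control 2 and 0.468 without control 1. It was also over 1 with quantile normalization (1.13) and without scaling (1.47). HSP27, a small heat shock protein that binds unfolding proteins and actin, had levels of 2.29 and 12.9 in controls and 3.32 and 3.35 under OE, also between the controls. Its ratio was 0.440 and its log2 fold change -0.70 (standard error 0.97). For HSP27, only control 2 exceeded the detection limit. With the OE arrays set at it in the same way and control 1 as read, the control mean was 1.18-fold higher, which is not a lower bound. HSP70 ranged from 21 to 49 in adjusted intensity, below the limit on every array, with a ratio of 0.407. HSP27 and HSP60 lie on either side of HSP90-beta by array code. On control 2, HSP27 was at its highest and HSP90-beta, with an adjusted intensity of 1774, at its lowest. On OE 1, the adjusted intensities of HSP60, at 345, and of HSP90-beta, at 5943, were both at their highest. Spread of signal between these spots was not tested.

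For 9 of the 14 genes control 2 had the highest level of the 4 arrays (45.3% of the 922 spots). The controls differed by over 2-fold for 10 of the 14 genes (57.6% of spots), with control 2 the higher for all 10 (37.1% of spots) and control 1 for none (20.5% of spots). The median ratio of control 2 to control 1 was 3.83 for the 14 genes and 1.27 for the 922 spots. The OE arrays differed by over 2-fold for thioredoxin peroxidase 1 and GSTM2 alone, 2 of the 14 genes, against 22.5% of spots. The median ratio of OE 1 to OE 2 was 1.25 for the 14 genes and 1.17 for the 922 spots.

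**Figure D3:**
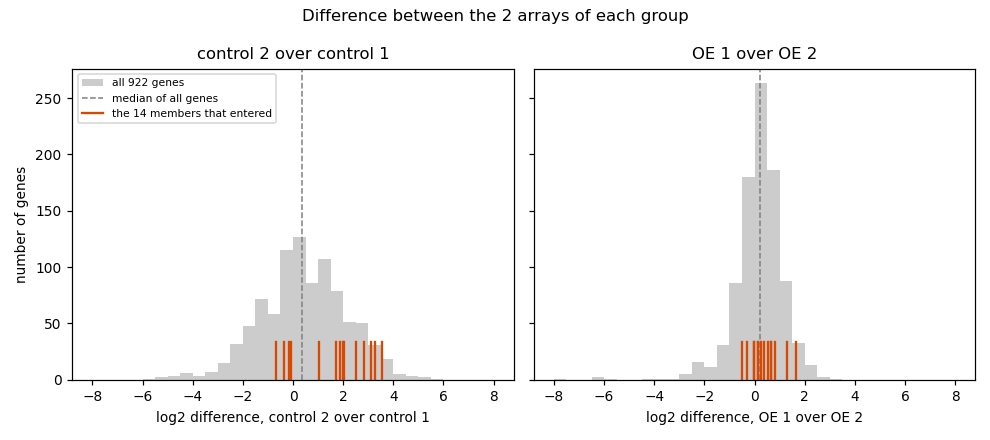
Histograms of the log2 difference between the 2 arrays of each group over 922 spots (grey, x axis in log2 units, y axis number of spots), with the 14 genes as orange marks and the median of all spots as a dashed line. The control marks reach from -0.68 to 3.55 with a median of 1.94, and the OE marks from -0.48 to 1.67 with a median of 0.32.

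Against control 2 alone, the OE mean had a ratio under 0.5 for 8 of the 14 genes (28.7% of spots), the 6 above with HSP60 and GST subunit 8, and over 1.5 for 3 (29.2% of spots), GST P, thioredoxin peroxidase 1 and GST Yrs-Yrs. Against control 1 alone, the ratio was under 0.5 for none (8.79% of spots) and over 1.5 for 7 (32.4% of spots). MGST1 went from 0.204 against control 2 to 2.39 against control 1, and SOD1 from 0.156 to 1.12. GSTM2 went from 0.152 to 1.30, glutathione synthetase from 0.180 to 1.72, HSP27 from 0.259 to 1.46 and HSP70 from 0.260 to 0.943. GST P, at 1.89 and 1.76, and thioredoxin peroxidase 1, at 3.14 and 2.44, stayed over 1.5 against either control. For each of the 6 genes with a ratio under 0.5, the difference between the group means was smaller than that between the control arrays.

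**Figure D4:**
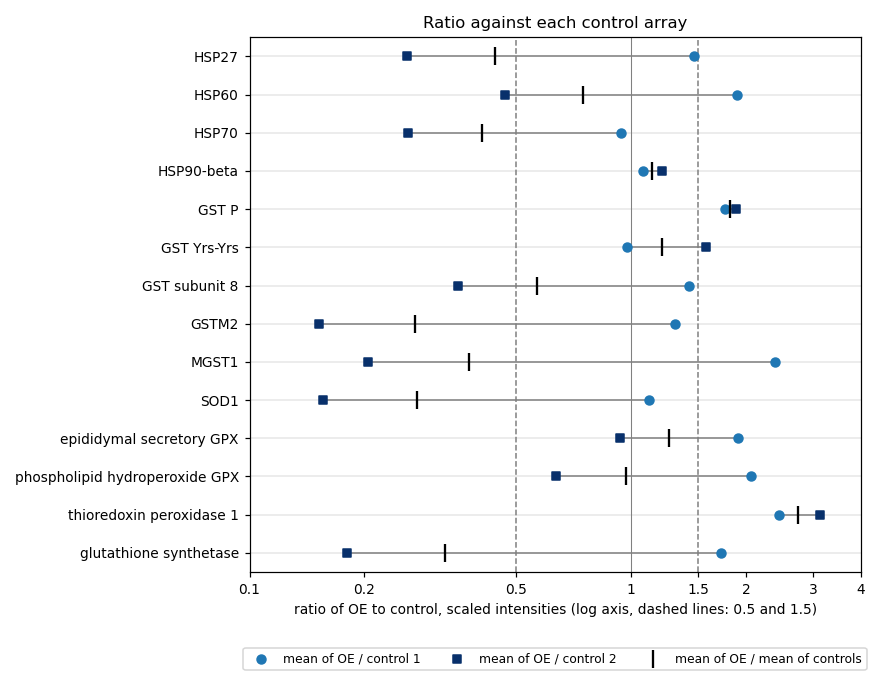
Ratio of the mean OE level to control 1 alone (circles), to control 2 alone (squares) and to the mean of both (upright ticks) for the 14 genes, on a logarithmic x axis with the cutoffs of 0.5 and 1.5 dashed. The tick of SOD1 at 0.274 stands between 0.156 and 1.12, while the marks of GST P lie between 1.76 and 1.89.

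In unscaled adjusted intensities, control 2 was the highest array for 7 of the 14 genes (18% of spots), HSP27, HSP70, MGST1, GSTM2, GST subunit 8, SOD1 and glutathione synthetase. The other 7 were highest on OE 1 (57.4% of spots), the array with the highest 50th percentile. Without scaling, 0 of the 14 genes had a ratio under 0.5 (3.04% of spots) and 6 a ratio over 1.5 (50.7% of spots).

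**Figure D5:**
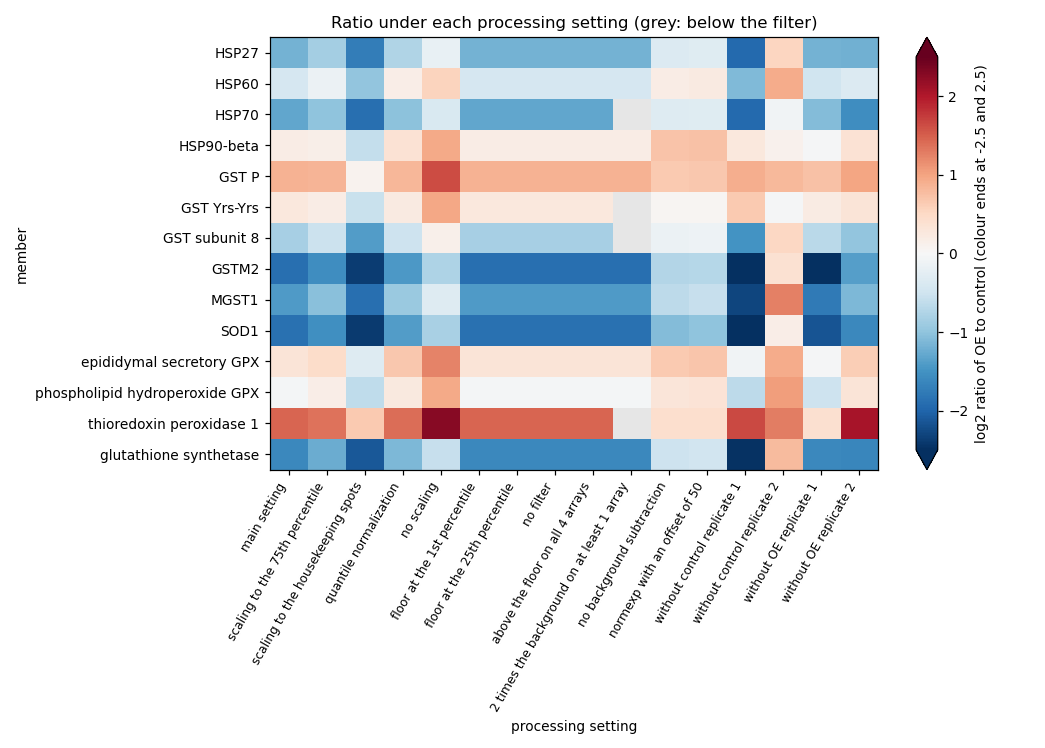
Log2 ratio of OE to control (colour, blue lower and red higher in OE) of the 14 genes (rows) under each processing setting (columns), with grey for a gene that was not kept. Without control 2, MGST1, SOD1, GSTM2, glutathione synthetase and HSP27 turn from blue to red, with ratios of 2.39, 1.12, 1.30, 1.72 and 1.46, while GST P is over 1 in every column, at the least 1.07.

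Markers of cell types also differed between the arrays. The summed level of 5 adipocyte markers (FABP4, LPL, HSL, fatty acid synthase and leptin) was 267 and 2251 in controls and 427 and 521 under OE. On control 2, 4 of the 5 exceeded the detection limit, and on the other arrays 1 to 3. FABP4, which marks fat cells, exceeded it on all 4 arrays and leptin on none. The summed level of 6 leukocyte markers (CD45, the T-cell receptor zeta and gamma subunits, CD4, CD8 and c-fms) was 187 and 21 in controls and 187 and 98.6 under OE, with 0 of the 6 over the limit on control 2 and 2 to 5 elsewhere. Control 2 thus had the highest adipocyte and the lowest leukocyte sum. It was the highest array for 9 of the 14 genes and for 45.3% of the 922 spots. MGST1, SOD1, GSTM2, glutathione synthetase and HSP27 were among the 9. The adipocyte sum rests mostly on FABP4, with a level of 2115 on control 2. CD45 had levels of 146 and 7.89 in controls. In adjusted intensity the T-cell receptor zeta subunit read 185 and 0 in controls. CD8 read 113 and 0 and the gamma subunit 21 and 0, both below the detection limit. CD4, at 11.2 and 8.0 in controls, and c-fms, at 7.14 and 5.11, differed less. The study reports lower FABP4, LPL, HSL and fatty acid synthase under OE by array and real-time PCR, without significance for HSL by PCR. Their OE levels thus need not mark fat cell content. Against control 1 alone, the OE mean had a ratio of 1.79 for FABP4, 1.81 for LPL, 3.68 for HSL and 0.310 for fatty acid synthase. The mesothelial gene WT1 was also highest on control 2, at 278 against at most 121 elsewhere in adjusted intensity. The 3 intestinal markers were apolipoprotein A-IV, sucrase isomaltase and the intestinal fatty acid-binding protein. They summed to 185 on OE 2 and to between 1.21 and 1.59 on the other arrays. The 2 genes listed for liver, apolipoprotein A-I and the liver fatty acid-binding protein, summed to 88.6 on OE 2 and to at most 1.55 elsewhere. As both sums rose on OE 2 alone, a liver signal cannot be told apart from an intestinal one. None of the 14 genes was highest on OE 2. GPX3 and GST Ya, which were left out of the 14, were highest on it, both below the detection limit. The 4 pancreas markers stayed under the limit on every array. The part of these cells in the levels of the antioxidant and chaperone genes was not tested.

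Related genes of redox metabolism and protein quality control, found by name, gave 13 further spots, of which 12 were kept. Of these, 3 had a ratio under 0.5 (18.3% of the 922 spots) and 1 over 1.5 (18.9% of spots). Their median ratio was 0.812, against 0.895 for the 922 spots. With limma, 0 of them had an adjusted p (0% of spots) or unadjusted p (2.06% of spots) under 0.05. Control 2 was the highest array for 9 of the 12 (45.3% of spots). Glutamate-cysteine ligase, which performs the first and limiting step of glutathione synthesis, had a ratio of 0.892 for its catalytic and 1.23 for its regulatory subunit, both below the detection limit on all arrays. Glucose-6-phosphate dehydrogenase, which supplies NADPH, read at most 21 and had a ratio of 0.450. ERP72, a disulfide isomerase of the endoplasmic reticulum, exceeded the limit on all arrays with a ratio of 0.946. Ceruloplasmin, the copper-bound ferroxidase, had a level of 3.36 and 3.67 in controls and of 5.82 on both OE arrays. Its groups did not overlap and its ratio was 1.66, with only OE 1 over the detection limit. Retinaldehyde-specific aldehyde dehydrogenase 2 had the lowest ratio of the 12, 0.154, with an adjusted intensity of 165 on control 2 and at most 46 elsewhere.
A further 3 spots belong to the same families but are spelled differently on the array, and were picked after their values were seen. GRP78, the chaperone of the endoplasmic reticulum, read 40 and 31 in controls and 179 and 98 under OE in adjusted intensity. Its ratio was 2.21, the groups did not overlap, and only OE 1 exceeded the detection limit. GST theta had a ratio of 3.28 with at most 21 on any array and both controls at the floor, and GST subunit 13 had a ratio of 0.330 with at most 36.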

How the data were processed

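RNA of mesenteric adipose tissue from 2 control and 2 OE-treated rats was hybridized to nylon Atlas Rat 1.2 arrays of 1185 spots, and samples were grouped by their labels. Per the file headers, the authors deposited the spot, background and adjusted intensity of each spot as the image software wrote them, with no scaling between arrays. A further 12 columns copy another array of the series and were not used, nor were the software's ratios and differences between arrays. The table of the whole series, also adjusted intensity, carries no gene names and served only for the count over all spots.

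Scaling to the 50th percentile and the cutoffs of 0.5 and 1.5 follow the study's methods. The methods' filter on control strength was not applied. Log2 levels were compared with limma 3.58.1 (R 4.3.3; lmFit, eBayes) without covariates, and p-values were adjusted by Benjamini-Hochberg. The fit was tested on simulated data, where recovery of changed genes was required only at a low spread between arrays. At the spread of these data only the size of the estimated changes was checked. Precision is limited by the number of arrays. The p-values rest on the spread between 2 rats per group with 1 array each, so that rat and hybridization cannot be told apart. For each gene, eBayes also draws this spread toward that of all kept spots, so that p-values do not measure the gene's own spread alone. The alternatives covered scaling, floor, filter, background, each array left out and the replicate number as a block. Values by array are given for genes over the detection limit on at least 1 array and for genes past a cutoff whose groups did not overlap, and the rest by range. Genes, related genes and markers were chosen with earlier results of these data known. A spot matched by xanthine within hypoxanthine was left out of the related genes.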

Additional observations from a re-analysis of the deposited data

How the results depend on the processing

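No spot passed an adjusted p of 0.05 with limma, neither in the setting reported nor in the 18 others, the smallest adjusted p of a setting lying between 0.188 (without control 1) and 0.999. At an unadjusted p under 0.05 the number of spots ranged from 1 to 226. The fit with the replicate block also gave 0, with 17 spots at an unadjusted p under 0.05. The deviations of same-numbered arrays had a correlation of 0.0495 over 922 spots, which are not independent replicates. Each group gives only the difference between its own arrays, so that this value cannot decide whether the numbers pair the rats.

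The 6 genes with a ratio under 0.5 became 0 without scaling (3.04% of all spots), 1 without background subtraction (0.880% of all spots) and 1 with normexp (0.905% of all spots). After scaling to the housekeeping spots they became 7, where 45.2% of all spots had such a ratio. Leaving out 1 array gave between 0 (without control 2) and 8 (without control 1). The 2 genes over 1.5 became 1 after scaling to the housekeeping spots (5.14% of all spots), 6 without scaling (50.7%) and 1 among spots over the detection limit on at least 1 array (13.3%), where thioredoxin peroxidase 1 was not kept. Leaving out 1 array gave between 1 (without OE 1) and 7 (without control 2). Of the 8 single ratios past a cutoff, 5 crossed 1, all of them without control 2. The 6 ratios between the cutoffs (HSP90-beta, HSP60, the epididymal secretory and phospholipid hydroperoxide GPX, GST Yrs-Yrs and GST subunit 8) each crossed 1 in at least 1 other setting, so that they have no settled direction. Over the arrays left out, HSP27 ranged from 0.259 to 1.46, MGST1 from 0.204 to 2.39, GSTM2 from 0.152 to 1.30, SOD1 from 0.156 to 1.12 and glutathione synthetase from 0.180 to 1.72. Of 206 single ratios in other settings, 178 moved by less than 1 SD between arrays of a group on the log2 scale. The floor and filter settings left the ratio unchanged wherever a gene was kept. The SD also includes the gap between the controls, so that this count does not show stability. Where 1 array was left out, limma took the lone array to vary like the other group. Signal over background limits the 7 genes below the detection limit on every array, and the series table gave no values for single genes.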
